A study of Mus musculus with 7 samples.

Results

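Transcription factor genes that the endocrine cells of the islet hold in common were followed in ATAC-Seq peak lists of mouse alpha, beta, and delta cells. They were Neurod1, Isl1, Pax6, Insm1, Rfx6, Rfx3, Foxa1, Foxa2, Myt1, and St18, 10 of the 21938 protein-coding genes of the GENCODE vM21 annotation. The members of each locus are the distinct peaks that overlap the gene body or the 50 kb on either side of it, which made 950 of the 1190565 peaks of the 7 lists. Together the 10 windows span 1797886 bp, and 0 peaks crossed a window edge. ATAC-Seq cuts and tags DNA where chromatin is open, so that a peak marks an accessible region.

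The cells came from healthy triple transgenic mice, pooled by sex, whose age is not given in the sources used here. All mice carried mIns1-H2b-mCherry, a nuclear red reporter driven by an insulin 1 promoter, and Rosa-LSL-YFP, which a Cre driver switches on. The driver was Gcg-Cre, active in alpha cells, or Sst-Cre, active in delta cells, so YFP reports past Cre activity. FACS-sorting gave a median of 20000 cells per sample, and libraries of 450 bp mean fragment length were read as 50 bp single ends. There were 2 alpha, 3 beta, and 2 delta libraries and no treated or control group. Beta cells were sorted beside alpha or delta cells from both crosses. Alpha cells came from the Gcg-Cre cross and delta cells from the Sst-Cre cross, so driver and cell type cannot be told apart between them. By the study's methods the cell types came from the same animals, which can hold only for beta cells with alpha or with delta cells. The study lists alpha 1, beta 2, and delta 1 as female and alpha 2, beta 1, beta 3, and delta 2 as male. Which libraries share a pool is not given in the sources used here. The tests treat the libraries as separate and take no account of shared animals. A p-value is the share of label assignments of these 7 libraries that set the cell types at least as far apart.

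The lists held 75860 to 518503 peaks, and 25903 to 52057 of them reached a −log10 q of 2. Because the lists differ in length, the 50000 peaks with the lowest p of each list were compared. The rank of a peak is its place in its own list by p, where 1 is the strongest, and peaks of equal p share a rank. Among these peaks the median fold enrichment was 3.57 to 4.29 in the beta libraries and 5.15 to 5.88 in the others. The beta libraries also had peaks at the starts of the fewest genes, 43.1% to 49.8% against 52.3% to 56.3%. By the study's own counts, all 3 beta libraries had fewer unique mapped reads than both alpha libraries and delta 1. Delta 2 had fewer than beta 3. In each beta library the name of the deposited list holds alpha or delta where the label reads beta, and the label was followed. Whether such a name gives the cross from which the beta cells were sorted is not stated in the sources used here. Among the 50000, peaks at the start of Gcg were found in both alpha libraries, in delta 2, and in 0 of the 3 beta libraries. Peaks at the start of Ins1 were found in beta 1, beta 3, and delta 1, and at the annotated start of Ins2 in beta 3 alone. Of the 4 delta markers, Hhex and Rbp4 had one in both delta and both alpha libraries and in no beta library, Ghsr in those 4 libraries and beta 1, and Sst in beta 1 alone. Of the 5 immune markers, 0 had a peak at the start in any library. Of the 6 acinar markers 0 to 2 had one in each library, and a single one of them had it in 5 libraries. Of the 4 duct markers 1 had one in beta 1 and 2 had one in each delta library. Of the 4 endothelial markers 1 had one in delta 1, and of the 3 mesenchyme markers 1 had one in delta 2.

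These factors act at successive steps of the making and keeping of islet endocrine cells. NEUROD1 is a basic helix-loop-helix activator that binds E-boxes and acts on insulin and other endocrine genes, ISL1 is a LIM homeodomain factor, and PAX6 carries a paired domain and a homeodomain and is needed for hormone gene expression. INSM1, MYT1, and ST18 are zinc-finger factors. RFX6 and RFX3 are winged-helix proteins that bind X-boxes, and RFX3 is also a regulator of cilia genes. FOXA1 and FOXA2 are forkhead pioneer factors, able to bind closed chromatin.

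The regions that carry the result in all cell types are shown first. For each member they lie outside 1 kb of any transcript start, were called in all 7 libraries, and are named by the distance in kb of their middle from the annotated gene start, positive in the direction of transcription. Each sequence is the 201 bases around the strongest summit on the plus strand of GRCm38 (mm10), and none overlaps an annotated exon. Capitals mark a match on either strand to CAGATG (an E-box of NEUROD1), CTAATG (an ISL core), or TGTTTAC (a FOXA motif). Foxa1, Foxa2, and Myt1 had no such region. St18 +265.1 kb, ranked better than St18 +23.7 kb, lies in an exon, and the intronic region is shown in its place.
Neurod1 +45.9 kb, chr2:79410645-79410845: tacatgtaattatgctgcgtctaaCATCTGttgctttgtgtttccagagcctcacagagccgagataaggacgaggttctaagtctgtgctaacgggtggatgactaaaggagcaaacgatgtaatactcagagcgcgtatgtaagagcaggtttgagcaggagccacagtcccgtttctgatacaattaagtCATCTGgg
Isl1 +15.7 kb, chr13:116293732-116293932: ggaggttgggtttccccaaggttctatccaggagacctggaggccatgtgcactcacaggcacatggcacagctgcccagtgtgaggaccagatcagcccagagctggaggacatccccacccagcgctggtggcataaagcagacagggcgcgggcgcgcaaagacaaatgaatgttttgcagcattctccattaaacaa
Pax6 +70.1 kb, chr2:105738958-105739158: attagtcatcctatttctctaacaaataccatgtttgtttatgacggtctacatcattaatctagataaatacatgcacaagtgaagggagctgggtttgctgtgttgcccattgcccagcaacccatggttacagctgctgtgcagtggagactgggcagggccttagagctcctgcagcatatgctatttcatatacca
Insm1 +32.8 kb, chr2:146254493-146254693: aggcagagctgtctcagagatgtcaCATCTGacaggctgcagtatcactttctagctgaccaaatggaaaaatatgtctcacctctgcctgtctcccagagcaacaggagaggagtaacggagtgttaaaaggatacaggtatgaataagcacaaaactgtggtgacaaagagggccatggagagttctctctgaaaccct
Rfx6 +50.4 kb, chr10:51728017-51728217: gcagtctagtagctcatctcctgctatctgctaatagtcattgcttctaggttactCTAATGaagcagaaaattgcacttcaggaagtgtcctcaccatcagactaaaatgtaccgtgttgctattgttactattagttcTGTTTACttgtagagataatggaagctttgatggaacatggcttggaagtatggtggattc
Rfx3 +106.3 kb, chr19:27904721-27904921: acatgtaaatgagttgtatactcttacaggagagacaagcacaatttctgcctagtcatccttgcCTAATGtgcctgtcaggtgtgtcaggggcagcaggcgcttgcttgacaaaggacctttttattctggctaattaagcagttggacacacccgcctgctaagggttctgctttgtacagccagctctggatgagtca
St18 +23.7 kb, chr1:6510971-6511171: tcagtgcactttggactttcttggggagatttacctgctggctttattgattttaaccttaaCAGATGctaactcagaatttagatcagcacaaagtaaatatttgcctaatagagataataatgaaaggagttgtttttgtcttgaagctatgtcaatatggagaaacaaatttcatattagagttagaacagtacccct

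A CAGATG match stood at positions 25 and 194 of the Neurod1 window, both on the minus strand, and at position 26 of the Insm1 window and position 63 of the St18 window, counted from the first base printed. Within introns of Rfx6 and Rfx3, CTAATG was found at positions 57 and 66, and the Rfx6 window also held TGTTTAC at position 141. The Isl1 and Pax6 windows held none of the 7 motifs searched. These matches are letters in a window and do not show binding.

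Regions found in only some cell types are shown next, for their contrast. They are regions of the member windows called in 2 libraries of one cell type and in 0 libraries of the others, together with one called in both alpha and both delta libraries and in no beta library. None of these 4 windows held a match.
Foxa1 +37.9 kb, beta, chr12:57508867-57509067: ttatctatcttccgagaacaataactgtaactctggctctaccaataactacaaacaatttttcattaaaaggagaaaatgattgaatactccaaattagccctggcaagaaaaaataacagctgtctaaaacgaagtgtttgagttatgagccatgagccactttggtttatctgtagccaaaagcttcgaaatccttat
Pax6 −1.2 kb, beta, chr2:105667602-105667802: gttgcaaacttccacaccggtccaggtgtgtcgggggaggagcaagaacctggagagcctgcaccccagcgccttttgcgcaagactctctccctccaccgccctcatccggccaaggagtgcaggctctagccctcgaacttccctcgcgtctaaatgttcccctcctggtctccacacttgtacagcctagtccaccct
Foxa2 +53.4 kb, delta, chr2:147993496-147993696: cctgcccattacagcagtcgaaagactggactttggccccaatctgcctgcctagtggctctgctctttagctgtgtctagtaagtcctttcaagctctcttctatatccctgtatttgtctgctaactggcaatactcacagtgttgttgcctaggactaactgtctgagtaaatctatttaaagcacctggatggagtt
Pax6 −2.0 kb, alpha and delta, chr2:105666849-105667049: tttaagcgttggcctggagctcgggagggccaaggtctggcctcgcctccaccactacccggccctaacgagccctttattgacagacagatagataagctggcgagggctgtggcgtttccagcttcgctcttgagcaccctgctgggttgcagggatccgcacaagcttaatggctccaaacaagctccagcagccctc

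The starts of most of these genes were open in every library. A TSS peak, a peak among the 50000 within 1 kb of the annotated gene start, was found in all 7 libraries at 6 of the 10 genes, namely Neurod1, Isl1, Insm1, Rfx6, Foxa1, and Foxa2. Of all protein-coding genes, 34.5% had one in all 7. Rfx3 had a TSS peak in 6 libraries, Pax6 in 5, and Myt1 and St18 in 0. With a peak at any annotated transcript start counted, 8 genes had one in all 7 libraries, Pax6 and St18 being added, beside 38.2% of all genes. No test was made of these counts, which describe 10 chosen genes.

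**Figure D1:**
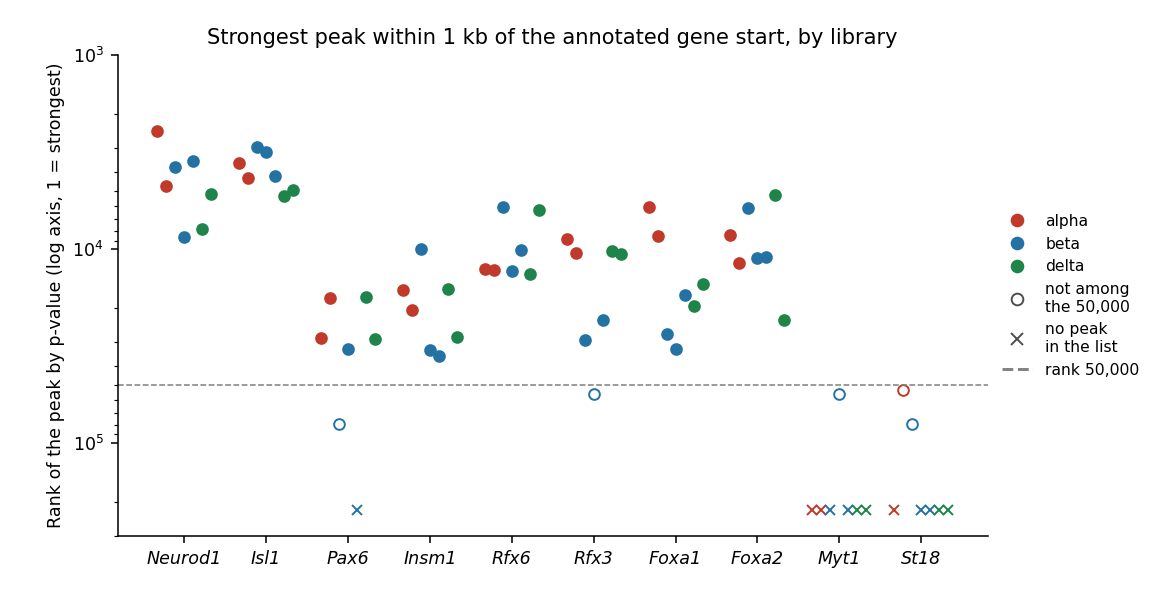
Rank by p-value (log axis, 1 at the top is the strongest) of the strongest peak within 1 kb of each annotated gene start, one point per library, coloured by cell type. Open circles lie past rank 50000 and crosses have no peak in the list. By median rank over the libraries Isl1 and Neurod1 stand first at their annotated starts, and Myt1 and St18 have no peak among the 50000 there.

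Isl1 (chr13:116298281-116309689, minus strand) had the most even start. Its peak ranked 3573 and 4302 in alpha 1 and 2, 2957, 3159, and 4173 in beta 1, 2, and 3, and 5329 and 4948 in delta 1 and 2. Fold enrichment was 9.79 to 12.5. The delta libraries ranked just behind all others, and cell types did not separate in the test (exact permutation p = 0.105). Among the 7566 genes with a TSS peak in all 7 libraries, 37% had a better median rank than Isl1. Its further shared region, at +15.7 kb, ranked 19087 and 29435 in alpha, 27435, 24622, and 25124 in beta, and 12952 and 19253 in delta libraries. There the alpha libraries lay on both sides of the beta libraries.

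Neurod1 (chr2:79452521-79456751, minus strand) was close to Isl1 in median rank. Its start ranked 2458 and 4701 in the alpha libraries, 3738, 8619, and 3484 in the beta libraries, and 7830 and 5211 in the delta libraries. The groups overlapped (exact permutation p = 0.419), and 41.4% of the 7566 genes had a better median rank. The region at +45.9 kb, in an intron of Cerkl, ranked 2535 and 8203 in alpha, 10369, 30675, and 12484 in beta, and 6917 and 5429 in delta libraries. There every beta library ranked behind every other library. How often this holds among all regions called in all 7 libraries was not counted, here or for the shared regions below.

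Rfx6 (chr10:51677756-51730432, plus strand) had a start peak of rank 12683 and 12751 in the alpha libraries, 6046, 12945, and 10102 in the beta libraries, and 13347 and 6257 in the delta libraries, and the groups overlapped (exact permutation p = 0.714). An intronic region near the end of the gene, at +50.4 kb, was called in all 7 libraries. It ranked 4844 and 8727 in alpha, 11844, 16530, and 25404 in beta, and 7238 and 10231 in delta libraries, with every beta library behind all others. Beyond the gene, a region at +85.7 kb ranked 2756 to 9269 in 6 libraries, and in beta 2 its peak was outside the 50000, at rank 70095.

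Insm1 (chr2:146221921-146225020, plus strand), a gene with a single short body, had the weakest start among those open in all 7 libraries. The ranks were 16282 and 20638 in alpha, 9897, 32951, and 35570 in beta, and 16023 and 28247 in delta libraries (exact permutation p = 0.943). Of the 7566 genes, 96.1% had a better median rank. The beta libraries held both the best and the worst ranks. Its further shared region, at +32.8 kb in an intron of Ralgapa2, ranked 15994 in alpha 1 and between 24532 and 38006 in the other libraries.

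Foxa1 (chr12:57540628-57546916, minus strand) was open at its start in all libraries but at different strengths. The ranks were 6059 and 8558 in alpha, 27313, 32607, and 17180 in beta, and 19578 and 15024 in delta libraries, and fold enrichment was 10.9 and 9.25, 3.80, 3.76, and 5.49, and 5.84 and 7.14 in the same order. Both alpha libraries ranked ahead of all others, while beta and delta libraries overlapped (exact permutation p = 0.0286, adjusted p = 0.478 over all genes tested). A second region called in all libraries lay at −29.3 kb, at the start of Ttc6, with ranks of 10995 to 37793.

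Foxa2 (chr2:148042877-148046969, minus strand) had a start peak with overlapping ranks, 8390 and 11718 in alpha, 6105, 11080, and 10952 in beta, and 5260 and 23083 in delta libraries (exact permutation p = 0.971). It was the one region of the Foxa2 window called in all 7 libraries. Away from starts, 2 regions were called in 3 libraries each and in no beta library. That at −35.5 kb had the better mean rank and was called in alpha 1 at rank 40110 and in the delta libraries at 12160 and 15545. That at +53.9 kb ranked 23065 and 37355 in the alpha libraries and 46791 in delta 1.

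Rfx3 (chr19:27761721-28011166, minus strand) ranked 8865 and 10381 in alpha and 10163 and 10592 in delta libraries. In beta 1 and beta 3 its start peak ranked 29177 and 23090, and in beta 2 it lay outside the 50000, at rank 55433. Every beta library was behind every other library (exact permutation p = 0.019, adjusted p = 0.478 over all genes tested). Fold enrichment was 3.28, 3.33, and 4.73 in the beta libraries and 8.89 to 9.38 in the others. On the log2 fold scale, with a fold of 1 given to beta 2 because its peak lay outside the 50000, the test gave an exact permutation p of 0.124. The intronic region at +106.3 kb, by contrast, was called in all 7 libraries at ranks of 8041 to 18922, and there the groups overlapped.

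Of the 14085 genes with a TSS peak in at least 1 library, 9.31% had an unadjusted exact permutation p of at most 0.05 for the rank, and among the 8 such members 2 did, Rfx3 and Foxa1. Every beta library ranked behind every other library at 10.1% of the genes and at 2 members, Rfx3 and Pax6. After Benjamini-Hochberg adjustment over all genes, 0 genes reached 0.05, and the lowest adjusted p was 0.453. The beta libraries had lower median fold enrichment over the 50000 peaks. The part of this, and of read depth, in the ranks of Rfx3 and Pax6 was not tested.

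Pax6 (chr2:105668900-105697364, plus strand) had its strong peak away from the annotated gene start. At that start the peak ranked 28772 and 17887 in alpha and 17504 and 28996 in delta libraries. Beta 2 had it at 32607, beta 1 outside the 50000 at 79343, and beta 3 had no peak there (exact permutation p = 0.2). Further transcripts start 6209 to 7229 bp downstream, and there every library had a peak, at chr2:105674994-105675783. It ranked 955 and 889 in alpha, 2136, 3138, and 1353 in beta, and 512 and 1207 in delta libraries, the best ranks at a start of any of the 10 genes in each library. Its fold enrichment was 12.8 and 13.1 in alpha, 9.25, 8.94, and 14.5 in beta, and 14.8 and 14.2 in delta libraries. The ranks of all 3 beta libraries lay behind those of the others, whereas the fold enrichment of beta 3 was above both alpha values.

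**Figure D2:**
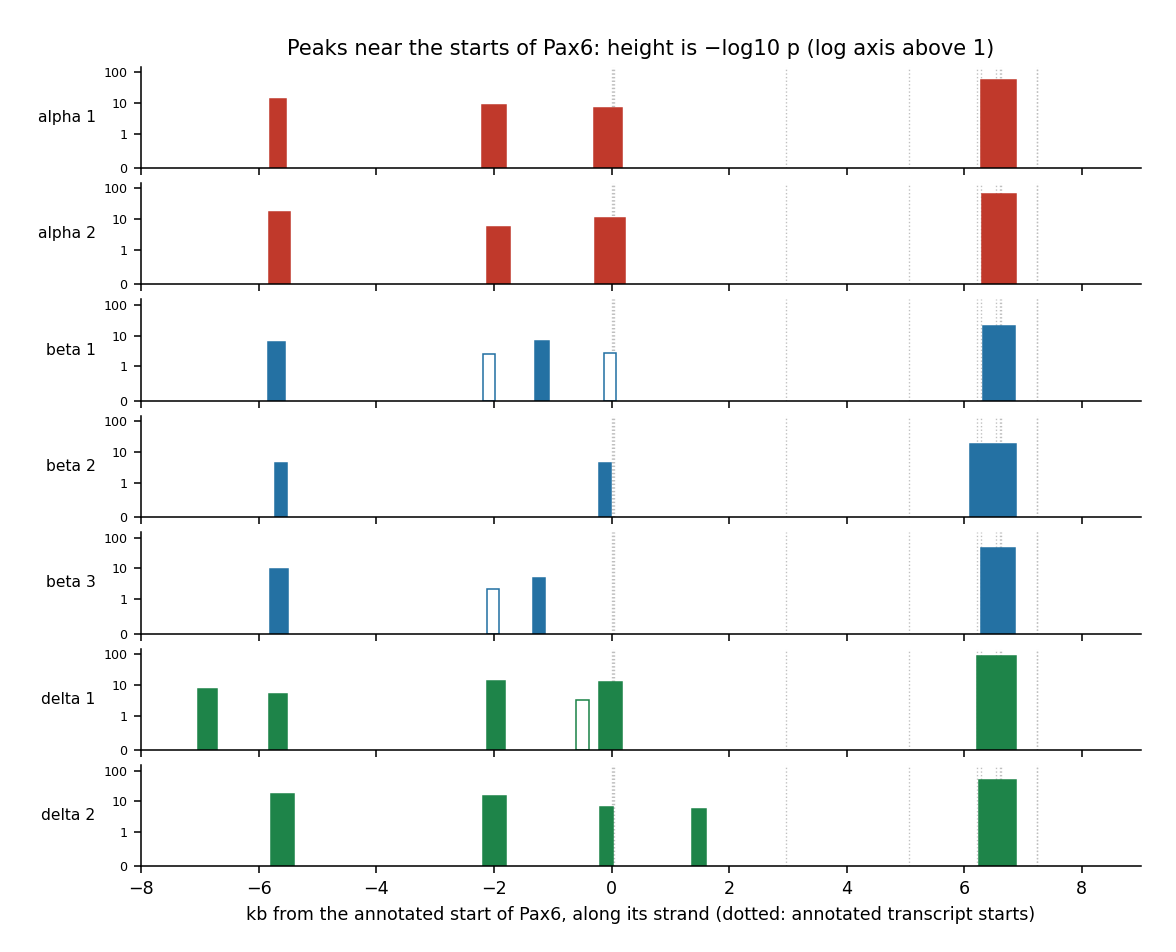
Peaks near the starts of Pax6 in each library. The horizontal axis is the distance in kb from the annotated start, bars span the peaks, their height is −log10 p (log axis above 1), filled bars are among the 50000 peaks and open bars are not, and dotted lines are transcript starts. The peak at +6.5 kb is the tallest in every library, and a peak at the annotated start among the 50000 is missing in beta 1 and beta 3.

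Away from starts, the Pax6 window also held the region of best mean rank among those called in all 7 libraries, at +70.1 kb in an intron of Elp4, the gene next to Pax6. It ranked 2120 and 1395 in alpha, 2333, 14684, and 6964 in beta, and 1432 and 1494 in delta libraries, with fold enrichment of 17.5 and 20.6, 11.6, 5.3, and 9.87, and 18.3 and 18.3. The beta libraries were the lowest in both measures. At −5.6 kb and +18.7 kb there were 2 further regions called in all 7 libraries, with ranks of 8612 to 44020 and 7322 to 33245. In between, at −2.0 kb, both alpha libraries (ranks 22892 and 36741) and both delta libraries (15955 and 11210) had a peak, and no beta library had one among the 50000. The full lists of beta 1 and beta 3 held weaker peaks there, at ranks 79482 and 103240. Beta 1 and beta 3 had a peak at −1.2 kb instead, at ranks 13945 and 35585, where no list of beta 2, alpha, or delta libraries held any peak.

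St18 (chr1:6487231-6860940, plus strand), also known as Myt3, resembled Pax6 in this respect. Its annotated gene start had no peak among the 50000 in any library. Transcripts that start 242820 to 242871 bp downstream had one in all 7, ranked 39826 and 12094 in alpha, 5117, 5750, and 9678 in beta, and 6337 and 12341 in delta libraries. Fold enrichment was 3.81 and 7.47 in alpha, 8.12, 7.65, and 7.58 in beta, and 11.2 and 7.38 in delta libraries. Here 2 beta libraries ranked ahead of all others. The exonic region at +265.1 kb ranked 10054 to 32960, and the intronic one at +23.7 kb ranked 8137 to 37505. At +265.1 kb the beta 2 peak, at rank 32960, shared its p with the last of the 50000 and was kept by a random order among ties.

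Myt1 (chr2:181763332-181827797, plus strand) had the least open starts of the 10 genes. At the annotated start a peak was found in beta 2 alone, outside the 50000 at rank 55433. Starts 3697 to 4180 bp downstream had a peak in alpha 1, alpha 2, and delta 1, at ranks 14672, 24262, and 37036, and in no list of a beta library or of delta 2. A region at −4.1 kb was called in 5 libraries, ranking 25416 and 16254 in alpha, 17725 in beta 3, and 16450 and 19821 in delta libraries. The single region of its window called in all 7 libraries was the start of Polr3k, a gene for an RNA polymerase III subunit, at +101.0 kb.

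**Figure D3:**
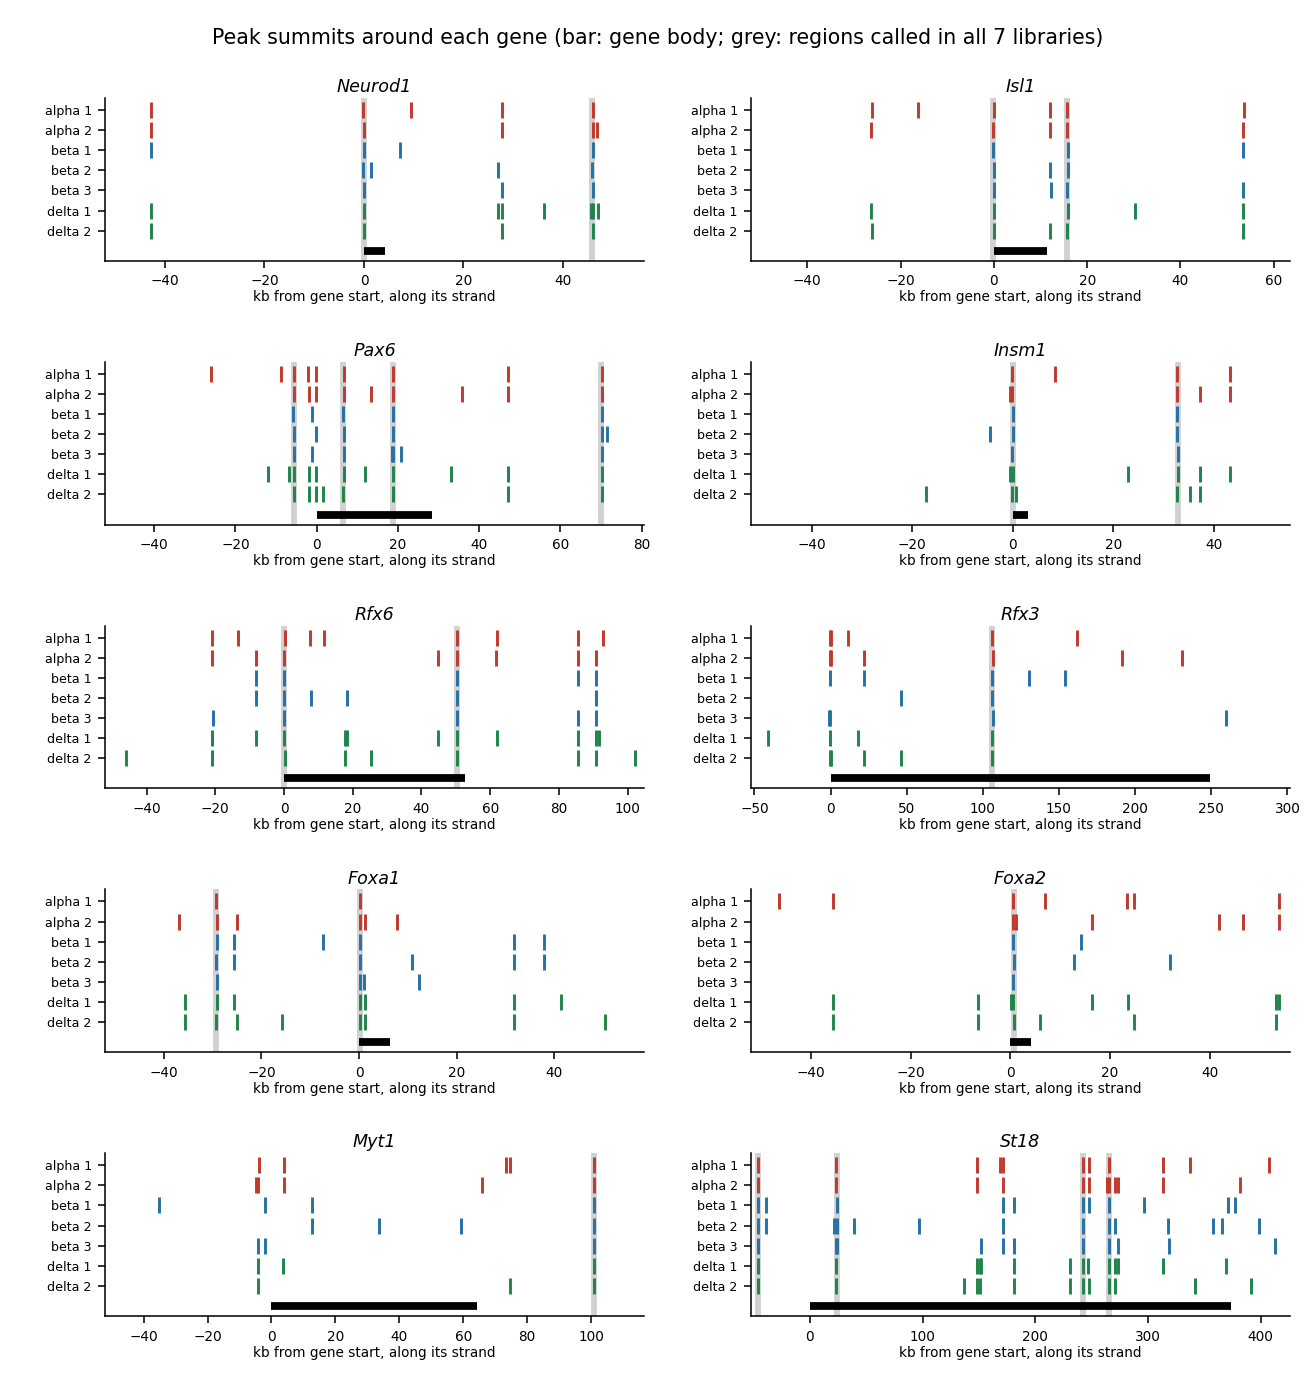
Summits of the peaks among the 50000 in the window of each gene. Each row is a library coloured by cell type, the horizontal axis is the distance in kb from the annotated gene start along its strand, the black bar is the gene body, and grey bands are the 21 regions called in all 7 libraries.

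Merging peaks that overlap by at least 1 bp across libraries gave 162 regions in the 10 windows. Of these, 21 were called in all 7 libraries, where 7.99% of all 157588 merged regions were. When a peak had to cover at least 0.5 of a region, 5 of the 162 were, beside 3.94% of all, so that the share was no longer above that of all regions. They were spread over all loci, with 4 each at Pax6 and St18, 2 each at Neurod1, Isl1, Insm1, Rfx6, and Foxa1, and 1 each at Rfx3, Foxa2, and Myt1. Starts of the member genes made up 8 of the 21, starts of other genes 3, introns of the members 4, introns of neighbouring genes 4, an exon of St18 1, and intergenic DNA 1. A further 87 regions were called in 1 library alone. The windows were chosen around genes, and how far nearness to a start alone sets the share in all libraries was not tested.

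Regions called in at least 2 libraries of 1 cell type and in none of the others numbered 12 of the 162. The 87 called in 1 library are not among them. For alpha cells the count was 1, beside 1.31% of all regions. For beta cells it was 5, beside 1.60%, and for delta cells 6, beside 1.54%. As shares of the 162, the beta and delta counts were above these percentages and the alpha count was below. No test was made of them. All 5 beta regions rested on beta 1, the library with the longest list, since 0 were left without it, 2 without beta 2, and 3 without beta 3. In both alpha and both delta libraries and in no beta library there were 4, beside 1.28%.

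Of the 5 beta regions, Foxa1 +37.9 kb ranked best, at 18632 in beta 1 and 7410 in beta 2. Beta 3 had a peak there that shared its p with the last of the 50000 and was not among those kept, and alpha 1 had one at rank 100570. Next came Myt1 +12.7 kb, at 18632 and 18922 in beta 1 and 2, and Pax6 −1.2 kb. Of the 6 delta regions, the best placed was Foxa2 −6.6 kb, at the start of the noncoding gene Gm27420, with ranks of 18965 and 13478. Then came Foxa2 +53.4 kb, with 24423 and 9536, and St18 +230.8 kb, with 19871 and 21901. At Foxa2 +53.4 kb alpha 1 had a peak just outside the 50000, at rank 50202 with a −log10 q of 2.16. Alpha 2 had one there at rank 91526. Weaker peaks in the full lists of other cell types overlapped 10 of the 12 regions. The exceptions were Pax6 −1.2 kb and St18 −39.2 kb, both beta regions. At St18 −39.2 kb the peaks of beta 1 and beta 2 ranked 30549 and 32960, with a −log10 q of 1.1 and 1.82. Both shared their p with the last of the 50000, so a random order among ties kept them.

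The clearest of the 4 regions found in alpha and delta cells was Isl1 −26.2 kb. It ranked 12825 and 8946 in alpha and 7553 and 13157 in delta libraries, with fold enrichment of 8.06 to 13.5. Beta 1 and beta 2 had peaks at ranks 79791 and 76201 with fold enrichment of 1.8 and 2.54, and beta 3 had none. Besides Pax6 −2.0 kb, the others were Pax6 +47.0 kb in an intron of Elp4, at ranks 18584 to 40419, and St18 +148.6 kb, at 14344 to 37912, and at both no beta list held any peak.

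The number of peaks in each window was then compared between cell types. Foxa2 had 7 and 6 peaks in the alpha libraries, 2, 3, and 1 in the beta libraries, and 8 and 6 in the delta libraries, or 6.5 ± 0.707 (SD, n = 2), 2 ± 1 (SD, n = 3), and 7 ± 1.41 (SD, n = 2). Rfx6 had 9 and 8, then 5, 6, and 5, then 11 and 9. Insm1 had 4 and 5, then 2, 3, and 2, then 6 and 6, so that all 3 cell types were apart. In each of these windows every beta library was below every other library (exact permutation p = 0.0286, 0.019, and 0.019, adjusted p = 0.593 for each over all genes).

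Isl1, with 6 and 5, then 3, 3, and 4, then 5 and 5 peaks, and Pax6, with 9 and 9, then 5, 6, and 7, then 11 and 8, had the beta libraries lowest as well (exact permutation p = 0.0857 and 0.0571). Myt1 differed in having the alpha libraries highest, at 5 and 5, against 4, 4, and 3 in beta and 3 and 3 in delta libraries (exact permutation p = 0.0381, adjusted p = 0.593). Foxa1, with 2 and 6, then 6, 6, and 4, then 7 and 8, had the delta libraries highest (exact permutation p = 0.21). Neurod1 with 3 to 8 peaks, Rfx3 with 2 to 6, and St18 with 11 to 14 showed overlapping groups (exact permutation p = 0.248, 0.419, and 0.486).

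**Figure D4:**
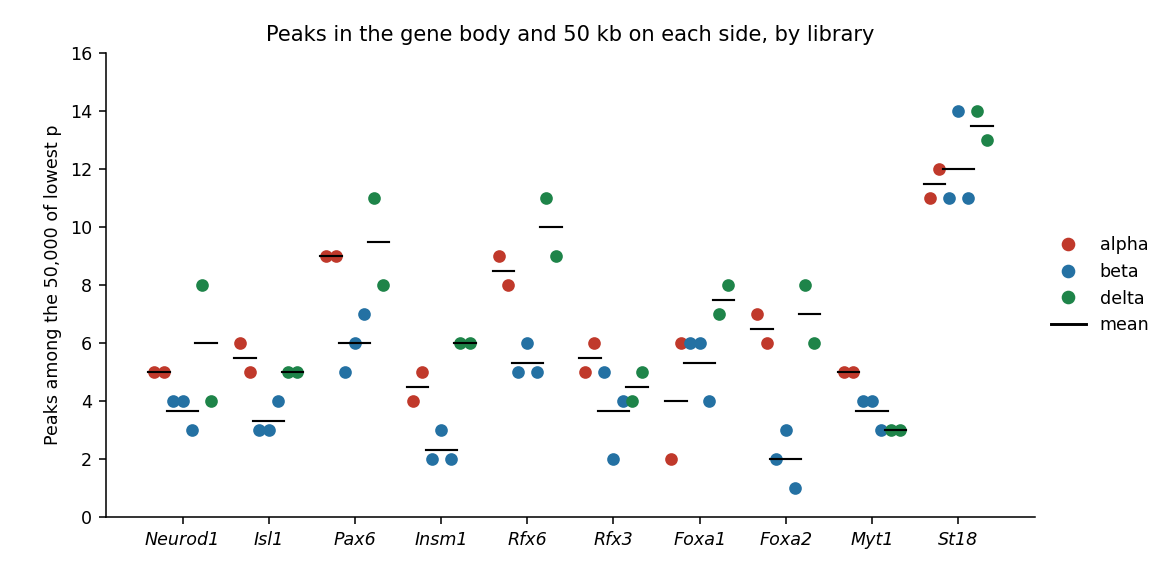
Number of peaks among the 50000 of each library in the gene body and 50 kb on each side, one point per library, coloured by cell type, with the mean of each cell type as a bar. The beta libraries are below all others at Isl1, Pax6, Insm1, Rfx6, and Foxa2, and the cell types overlap at Neurod1, Rfx3, and St18.

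In all, 4 of the 10 windows, those of Insm1, Rfx6, Foxa2, and Myt1, had an unadjusted exact permutation p of at most 0.05, beside 7.14% of all genes. None passed adjustment, and neither did any of the 21938 windows, where the lowest adjusted p was 0.593. Every beta library was below every other library at 5 members, beside 6.91% of all genes. With 10 kb on each side in place of 50 kb this held at 0 members, and with all peaks, scaled to the length of each list, at 2. The windows held 44 to 51 peaks in all in the beta libraries and 63 to 77 in the others. Over all genes the mean per window was 3.66 to 4.27 in the beta libraries and 4.30 to 4.56 in the others. The part of the lower fold enrichment of the beta libraries, and of read depth, in these counts was not tested.

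Peaks were denser around these genes than in the median window of all genes, with a median of 4.25 peaks per 100 kb against 2.73. Pax6 had the densest window, 6.12 per 100 kb, and Rfx3, a gene of 249446 bp, the sparsest, 1.27.

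Related genes were set beside the members. Of 30 other islet transcription factor genes, 9 had a TSS peak in all 7 libraries, among them Mafa, Nkx6-1, and Hnf4g, and 6 had none in any, among them Sox9 and Pax4. Of 18 paralogs of the members 5 had one in all, Rfx1, Rfx2, Rfx5, Rfx7, and Foxa3, and 7 had none in any. Neurod2, Neurod6, Pax2, Pax5, Pax7, and Pax8 were among those 7 and belong to the families of Neurod1 and Pax6. Of 16 transcription factor genes of other lineages, such as Myod1 of muscle and Gata1 of blood, 0 had one in all and 11 had none in any. With any annotated transcript start counted, Pax5 had a peak in 6 libraries and Pax8 in 1. By that count 4 paralogs and 9 genes of other lineages had none in any library. Window counts passed an unadjusted exact permutation p of 0.05 at 8, 2, and 1 genes of the 3 lists, beside 7.14% of all genes. Every beta library was below every other library at 5, 3, and 0 genes of these lists, beside 6.91% of all genes. Of all protein-coding genes, 34.5% had a TSS peak in all 7 libraries.

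**Figure D5:**
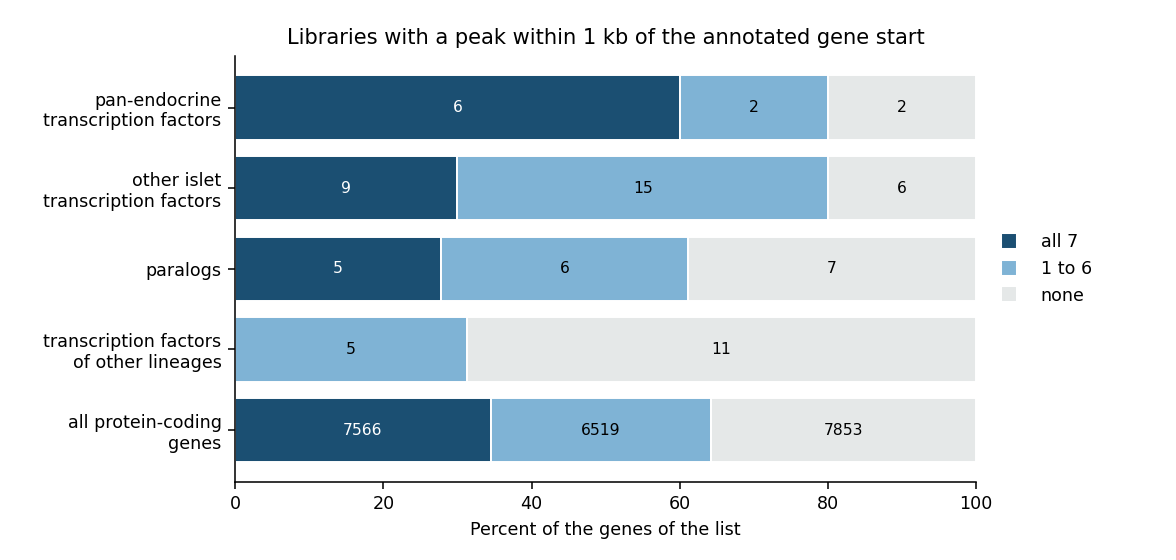
Share of the genes of each list, in percent, with a peak within 1 kb of the annotated gene start in all 7 libraries, in 1 to 6, or in none, with the number of genes in each bar. The 10 members have 6 genes open in all libraries and the 16 factors of other lineages have 0.

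Motifs of the factors themselves were counted in the open regions. Besides the 3 motifs spelled out for the printed windows they were GTTGCCA (an RFX site), TTCACGC (part of the PAX6 paired-domain site), AAAGTTT (a core of MYT1 and ST18), and CAGGGGG (part of the INSM1 site), searched on both strands. Of the 21 member regions called in all libraries, 6 (28.6%) held CAGATG and 4 (19.0%) held CTAATG, and of all 12580 such regions 11.7% and 6.85% did. TGTTTAC was in 9.52% against 4.07%, GTTGCCA in 4.76% against 4.02%, and CAGGGGG in 4.76% against 5.28%, and 0 of the 21 held TTCACGC or AAAGTTT, against 1.06% and 1.14%. The median GC content of these member regions was 56.7%, and that of all such regions 60.7%, and the part of base composition in the shares was not tested. Among the 52 member regions away from starts and called in at least 2 libraries, 44.2% held any of the 7 motifs, as did 44.1% of all 38776 such regions. CAGATG was found in 26.9% of them against 21.9%, TGTTTAC in 9.62% against 7.21%, and CTAATG in 9.62% against 12.8%. In the RefSeq promoters of the members, which the table gave for 8 of the 10 genes, TGTTTAC was found at a Foxa1 start 805 bp past the annotated one and at the Myt1 start 3697 bp past its own, and 3.17% of 32851 promoters held it.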

How the data were processed

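Peak lists of 7 libraries were analysed, and the cell type and replicate of each came from its label. The authors checked reads with FastQC, trimmed with Trimmomatic, and aligned to mm10, without the mitochondrial genome, by Bowtie 2. Picard marked duplicates, blacklisted regions were taken out, and MACS2 peak calling was done per library. Tool versions are not given in the sources used here. The −log10 p, −log10 q, fold enrichment (a ratio to local background), and score of a peak were deposited by the authors. The differential test of the study needs reads per region, which peak lists do not hold, and was not repeated. A list gives no depth at an absent peak, so absence has no limit of detection.

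Rows that repeat an interval were counted once. The 50000 peaks of lowest p were kept per list. This limit fell among 478 to 33410 peaks of equal p, of which 241 to 19452 were kept in a seeded random order. Genes came from GENCODE vM21 and sequences from GRCm38, whose chromosome lengths held all peaks, with promoters from RefSeq. A gene with no TSS peak was given rank 50001. Cell types were compared by an exact permutation test without direction, of the between-group sum of squares over all 210 assignments of the libraries, with peak numbers as they are and ranks on the log10 scale. The smallest possible p was 0.00952, and Benjamini-Hochberg adjustment ran over all genes. Pairs of cell types cannot reach 0.05 and were not tested. All members were named, with the region away from starts called in most libraries for each and the 3 selective regions of best mean rank for each cell type. A region and a gene that this rule or a list held are not reported here. The members and lists were chosen with earlier results of these data known. The steps were tested on simulated data. Python 3.11.15, numpy 2.4.6, pandas 2.3.3, and matplotlib 3.10.9 were used.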

Additional observations from a re-analysis of the deposited data

How the results depend on the processing

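The count of 6 members with a TSS peak in all libraries was 7 with all peaks or a distance of 3 kb, 8 at any transcript start, and 4 with peaks at or above a −log10 q of 2, and 6 to 7 when each library was left out. The 21 regions called in all libraries became 5 when a peak had to cover at least 0.5 of a region, which took their share below the 3.94% of all regions, and 21 to 24 without single libraries. The 12 regions of 1 cell type became 2 when no full list of another cell type could hold a peak, and 6 to 12 without single libraries, 7 without beta replicate 1 and 6 without delta replicate 2. With all peaks they were 11 of 536, beside 2.43% of all regions, with 7 in beta and 2 in delta cells in place of 5 and 6. Leaving out an alpha or delta library leaves that cell type below the 2 libraries that the rule needs.

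The 4 windows with an unadjusted exact permutation p of at most 0.05 became 0 with 10 kb on each side and 1 with all peaks per 10000 peaks of the list. They became 2 with the peaks tied at the limit left out, an alternative chosen after seeing the data. Without single libraries the count was 0 to 4. It was 2 without alpha replicate 1, 1 without delta replicate 1, and 0 when any one beta library was left out, where the smallest possible p is 0.0667. The 2 members whose TSS rank differed became 1 on the log2 fold scale and 0 to 2 without single libraries, with 1 without alpha replicate 1 or either delta library and 0 when any one beta library was left out. The pattern of every beta library below all others held at 2 members for peaks at or above a −log10 q of 2 (7.88% of all genes) and at 2 with tied peaks left out (7.63%). With all tied peaks kept it held at 5 (13.6%), with 10 kb at 0 (3.96%), and with all peaks at 2 (5.01%).

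Libraries with the same replicate number did not deviate together (r of −0.04 to 0.05 over 6 pairs). The 2 alpha libraries deviate in mirror image, as do the 2 delta libraries, so the 6 pairs are not independent. Libraries of one number come from pools of both sexes, so the numbers do not stand for shared animals and these r cannot tell whether animals were shared. With a replicate block, 36 assignments remain and the smallest p is 0.0556, so both counts were 0.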
